A study of Mus musculus with 18 samples.

Results

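The genes described here serve protein folding and secretion in the endoplasmic reticulum (ER). They were taken as a list of 41 genes of the unfolded protein response, the ER chaperones, ER-associated degradation and protein translocation, and 40 of them were measured by a probe set annotated to that gene alone, of 18194 genes so measured. The exception was Sec61g, a subunit of the translocation channel, whose probe set is shared with other genes.

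RNA came from OT-I CD8+ T cells, which recognise 1 ovalbumin peptide through a transgenic receptor, and was hybridised to 18 Affymetrix mouse expression arrays. All 6 groups, the controls included, held cells of male mice, with no age given. Naive CD8+ cells were isolated from spleens of OT-I Thy1.1 animals by negative selection and primed for 48 hours with irradiated, peptide-pulsed whole splenocytes of wild-type C57BL/6 mice. Live cells were then enriched on a density gradient and cultured for 24 hours in media alone (media control) or with 100 ng/ml of recombinant mouse cytokine, namely IL-21, IL-15, IL-7, IL-4 or IL-2, the cytokines whose receptors share the common gamma chain (γc). Each group had 3 biological replicates, and replicate 3 of each group was prepared by another RNA method (TRIzol followed by Direct-zol) than the first and second (RNeasy). The comparisons ask how each cytokine, given alone after priming, changed this set of transcripts, and how IL-2 compared with the other cytokines.

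Secreted and membrane proteins enter the ER through the SEC61 channel, lose their signal peptide, are glycosylated by the oligosaccharyltransferase and fold with the help of chaperones and disulfide isomerases. Proteins that fail to fold are sent back to the cytosol for degradation. When unfolded proteins accumulate, 3 sensors in the ER membrane respond: IRE1 (Ern1), which splices the mRNA of the transcription factor XBP1, PERK (Eif2ak3), which slows translation, and ATF6, which is cleaved into a transcription factor. Together these raise the transcripts of the folding machinery. Activated lymphocytes are known for enlarging this system, most of all B cells that become plasma cells, and the arrays measure transcript levels only, not splicing, cleavage or phosphorylation.

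The ER stress response element (ERSE) is the classic sequence through which ATF6 and XBP1, together with the CCAAT-binding factor NF-Y, act on chaperone promoters. Its sites are shown because they separate the members into those with and without the known element. The element, CCAAT and CCACG with 9 bases of any kind between them, was searched on both strands of the RefSeq promoter windows of build GRCm38.p6, which run from 250 bases before to 50 bases after each transcription start. A window was listed for 33 of the 41 members, and not for Derl1, Hyou1, Sec61a1, Atf6, Ostc, Manf, Ssr2 and Sec11c. The element occurred in the windows of 9 members and in 0.137% of all 27025 genes with a window. The sites are given 5′ to 3′ in the direction of the CCAAT box, with both fixed parts in capitals and the spacer of 9 bases in lower case.
Hspa5 (chr2:34772025-34772043, plus strand): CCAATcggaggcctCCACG
Calr (chr8:84847075-84847093, plus strand): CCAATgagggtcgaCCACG
Derl3 (chr10:75893242-75893260, minus strand): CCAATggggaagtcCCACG
Hsp90b1 (chr10:86705638-86705656, minus strand): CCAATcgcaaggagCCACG
Hsp90b1 (chr10:86705533-86705551, plus strand): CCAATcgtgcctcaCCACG
Canx (chr11:50325800-50325818, minus strand): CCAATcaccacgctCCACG
Pdia6 (chr12:17266491-17266509, plus strand): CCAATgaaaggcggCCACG
Dnajc3 (chr14:118937827-118937845, plus strand): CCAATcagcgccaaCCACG
Creld2 (chr15:88819520-88819538, minus strand): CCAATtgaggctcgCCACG
Syvn1 (chr19:6046532-6046550, plus strand): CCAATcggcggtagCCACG
All 10 sites lay before the start, from 212 to 26 bases upstream. The shorter element ERSE-II, ATTGG and CCACG with any 1 base between them, occurred in 2 member windows and in 0.0444% of genes.
Herpud1 (chr8:94386377-94386387, plus strand): ATTGGgCCACG
Dnajb11 (chr16:22857852-22857862, plus strand): ATTGGcCCACG
The Herpud1 site lay 52 to 42 bases before the start and the Dnajb11 site after it. The XBP1 element TGACGTGG occurred in none of the member windows and in 0.714% of genes.

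The 250 bases before the start are given below for Xbp1, which had the largest differences, for Hspa5, Creld2 and Pdia6, which hold an ERSE and rose, and for Dnajc3, which holds one and did not rise. They are written 5′ to 3′ on the strand of the gene, and capitals mark the fixed parts of an ERSE, which read CGTGG and ATTGG where the element lies on the opposite strand, as in Creld2.
Xbp1 (chr11:5520391-5520640, plus strand): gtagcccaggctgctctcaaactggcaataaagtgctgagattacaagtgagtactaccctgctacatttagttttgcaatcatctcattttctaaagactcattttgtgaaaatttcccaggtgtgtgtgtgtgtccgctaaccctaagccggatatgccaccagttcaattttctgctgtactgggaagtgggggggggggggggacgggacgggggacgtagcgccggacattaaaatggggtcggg
Hspa5 (chr2:34771840-34772089, plus strand): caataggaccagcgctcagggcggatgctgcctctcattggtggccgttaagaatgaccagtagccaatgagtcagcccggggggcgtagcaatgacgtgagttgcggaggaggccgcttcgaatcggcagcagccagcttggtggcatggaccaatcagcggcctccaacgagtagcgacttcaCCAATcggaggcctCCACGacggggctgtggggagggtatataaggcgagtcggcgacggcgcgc
Creld2 (chr15:88819396-88819645, plus strand): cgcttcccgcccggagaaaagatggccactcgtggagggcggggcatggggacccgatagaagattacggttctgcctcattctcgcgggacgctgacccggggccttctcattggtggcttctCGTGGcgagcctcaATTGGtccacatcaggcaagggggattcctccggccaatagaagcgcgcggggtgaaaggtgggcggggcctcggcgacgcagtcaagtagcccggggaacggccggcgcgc
Pdia6 (chr12:17266339-17266588, plus strand): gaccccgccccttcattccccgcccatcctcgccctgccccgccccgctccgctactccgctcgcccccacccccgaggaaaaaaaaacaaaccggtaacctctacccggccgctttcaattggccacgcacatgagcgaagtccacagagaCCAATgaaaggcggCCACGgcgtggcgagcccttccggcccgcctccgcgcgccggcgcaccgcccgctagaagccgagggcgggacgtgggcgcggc
Dnajc3 (chr14:118937682-118937931, plus strand): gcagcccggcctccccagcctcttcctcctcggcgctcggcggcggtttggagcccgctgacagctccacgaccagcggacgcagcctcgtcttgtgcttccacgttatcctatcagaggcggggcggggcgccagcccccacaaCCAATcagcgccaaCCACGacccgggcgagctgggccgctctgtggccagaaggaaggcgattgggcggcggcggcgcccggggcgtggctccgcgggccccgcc

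Values are log2 levels after a renewed quantile normalization of the 18 arrays, and differences are between means of log2 levels. The renewal was needed because 3 arrays, all of replicate 3 and from the IL-15, IL-2 and control groups, were deposited on a lower scale, with medians of 4.47 to 4.52 where the remaining 15 had 5.76 to 5.84. As a sign of RNA integrity, actin read at its 3′ end exceeded actin read at its 5′ end by 0.59 to 0.68 on these 3, by 0.37 to 0.39 on the remaining replicate 3 arrays and by 0.19 to 0.31 on all others. The same measure of Gapdh did not show this order. It ran from -0.05 to 0.02 on these 3, stood at -0.01 on the remaining replicate 3 arrays and ran from 0.00 to 0.12 elsewhere. A difference was called at an adjusted p under 0.05 in a limma fit over all genes, and "block" below stands for the same fit in which replicate numbers form blocks. Levels are of 1 probe set each and are not compared between genes. A level of 6.59, the 95th percentile of genes of other tissues, served as the background, and 3 members, Derl3, Ern1 and Wfs1, had a mean under it.

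Members rose in IL-2, IL-4 and IL-21. In IL-7 1 member passed without the block and 10 with it, and in IL-15 0 passed with either. With IL-2, 11 of the 40 members were higher than in media control and 0 lower, where 7.83% of all genes were higher and 8.0% lower. All genes called in either direction made 15.8%. The shares of all genes include genes under the background, where 3 of the 40 members lay. The part of expression level in the difference between members and all genes was not tested. IL-4 raised 8 members (3.98% of all genes higher, 5.10% lower, 9.07% either way) and IL-21 raised 9 (3.39%, 3.29% and 6.67%), with 0 members lower. At an unadjusted p under 0.05, 3 members were lower for IL-2 and 1 each for IL-4 and IL-21, and with the block 4, 2 and 1 passed as lower. IL-7 raised 1 member, Xbp1 (0.934% of all genes higher, 0.747% lower, 1.68% either way). With IL-15, 0 members and 0 of all genes passed in limma, 0 members and 390 genes had an unadjusted p under 0.05, and the block also gave 0. The median difference over the 40 members was 0.14 in IL-2, 0.24 in IL-4, 0.08 in IL-7, 0.03 in IL-15 and 0.35 in IL-21, against medians over all genes from -0.02 to 0.01. In a population of cells, fewer cells of a type and less RNA per cell cannot be told apart.

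Arrays with the same replicate number deviated together, and with the block the counts rose for all genes and for members. IL-2 then raised 19 members and lowered 4 (15.5% of all genes higher, 15.1% lower, 30.6% either way). IL-4 raised 16 and lowered 2 (12.9% each way, 25.8% in all), IL-7 raised 8 and lowered 2 (8.34% and 8.01%, 16.3% in all), and IL-21 raised 20 and lowered 1 (10.6% and 10.5%, 21.1% in all). The counts without the block also leaned on single arrays. For IL-2 the count was 6 without replicate 2 of media control and 4 without replicate 1 of IL-2. For IL-4 it was 3 without replicate 2 or 3 of media control or without replicate 1 or 2 of IL-4, and 5 without its replicate 3. For IL-21 it was 4 without replicate 2 of media control or replicate 1 of IL-21, and 5 without replicate 2 of IL-21. Of the 29 calls against media control, 12 held without any 1 array of the groups compared, and these were the calls of Xbp1 in IL-2, IL-4, IL-7 and IL-21, of Sdf2l1 in IL-4 and IL-21, of Creld2 in IL-2, IL-4 and IL-21, of P4hb and Rpn1 in IL-2 and of Atf6 in IL-21. Without the 3 arrays on the lower scale 8 members were higher for IL-2, 6 for IL-4, 1 for IL-7, 0 for IL-15 and 7 for IL-21, and among the calls lost were those of Hspa5 for IL-2, IL-4 and IL-21 (0.53, 0.57 and 0.62, adjusted p = 0.16, 0.114 and 0.103). Of all 18194 genes, 2763, 1808, 352, 0 and 1320 were then called in either direction. On the values as deposited 0 members passed in any comparison, with 2 members at an unadjusted p under 0.05 for IL-2, 10 for IL-4, 2 for IL-7, 0 for IL-15 and 8 for IL-21. Of all genes 1109, 1361, 888, 12 and 1087 had such a p, and 74, 67, 8, 0 and 90 were called.

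**Figure D1:**
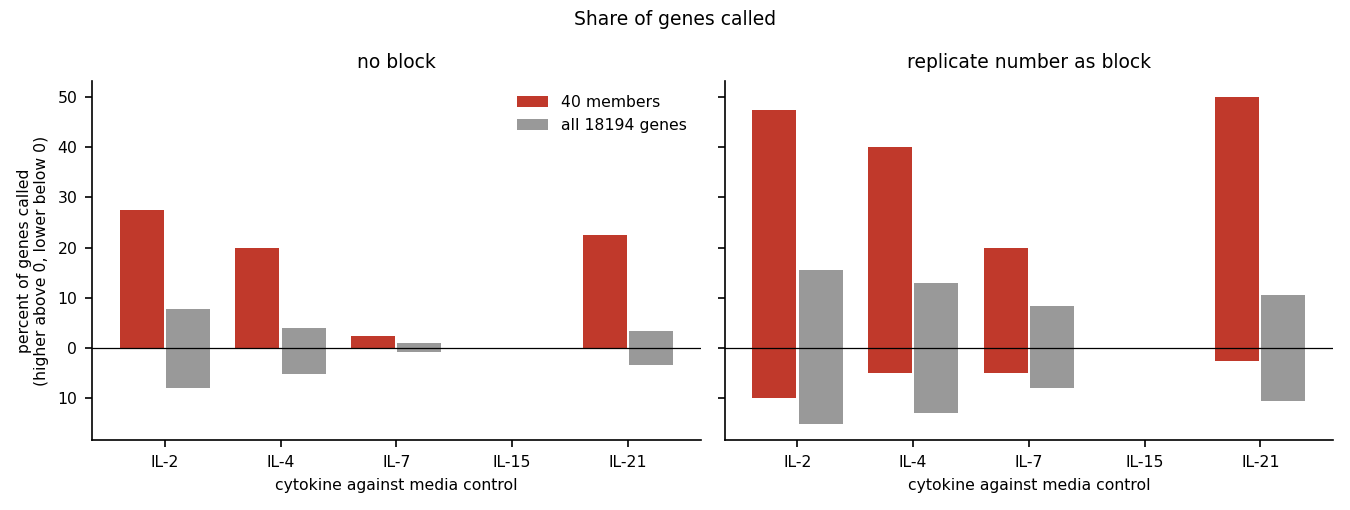
Percent of genes called higher (above 0) or lower (below 0) than media control at an adjusted p under 0.05, for each cytokine, among the 40 members (red) and all 18194 genes (grey), without and with the replicate number as a block. Red bars exceed grey ones above 0 for IL-2, IL-4, IL-7 and IL-21 in both panels (27.5% against 7.83% for IL-2 without the block), and IL-15 has no bar. The grey bars include genes under the background.

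Xbp1, the transcription factor of the IRE1 branch, had the largest differences of all members in IL-2, IL-4 and IL-7. Its log2 levels were 11.08, 11.03 and 10.73 in media control, 13.07, 12.99 and 12.58 in IL-2, and 12.86, 12.98 and 12.75 in IL-4. They were 12.50, 12.41 and 12.14 in IL-21, 12.18, 12.17 and 11.88 in IL-7, and 11.23, 11.08 and 11.24 in IL-15. The arrays of IL-2, IL-4, IL-7 and IL-21 all lay above those of media control, and those of IL-15 overlapped with them. The differences from media control were 1.93 in IL-2 (SE 0.15, adjusted p = 2.1e-06), 1.91 in IL-4 (adjusted p = 3.2e-06), 1.40 in IL-21 (adjusted p = 4.0e-05) and 1.13 in IL-7 (adjusted p = 0.0029). With IL-15 the difference was 0.24 (95% interval -0.09 to 0.56) and did not pass. In the order of the group means, IL-2 and IL-4 differed by 0.02 (95% interval -0.30 to 0.34) and IL-21 and IL-7 by 0.28 (-0.05 to 0.60), and neither passed. IL-4 lay 0.51 above IL-21, which passed with the block only (adjusted p = 0.0848 without it and 0.00357 with it). All 4 probe sets of Xbp1 passed in IL-2, IL-4, IL-7 and IL-21, with differences from 0.88 to 1.93.

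Atf6, whose protein is cleaved into a transcription factor, rose in IL-21 and with no other cytokine tested. Its levels were 9.34, 9.47 and 9.53 in IL-21, against 8.03, 8.21 and 7.60 in media control. They were 8.10, 7.54 and 7.61 in IL-2, 7.80, 7.86 and 7.86 in IL-4, 7.84, 7.82 and 7.72 in IL-7, and 8.01, 8.08 and 7.54 in IL-15. The 3 IL-21 arrays stood above all 15 others. The difference from media control was 1.50 (SE 0.18, 2.83-fold, adjusted p = 8.1e-05), and the differences of the other cytokines ran from -0.20 in IL-2 to -0.07 in IL-15. IL-21 also exceeded each other cytokine directly, by 1.70 over IL-2 (adjusted p = 3.9e-05), 1.60 over IL-4 (adjusted p = 5.3e-05), 1.65 over IL-7 (adjusted p = 6.8e-05) and 1.57 over IL-15 (adjusted p = 7.8e-05). The last 3 comparisons were added after the values of Atf6 had been seen. All 3 probe sets of Atf6 passed in IL-21, at 1.50, 1.48 and 1.30, and none with another cytokine.

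Of the other sensors, Ern1, which encodes IRE1, was near the background, at 6.62, 6.68 and 6.01 in media control, 6.51, 6.57 and 6.05 in IL-2, 6.84, 6.48 and 6.33 in IL-4, 6.53, 6.53 and 5.97 in IL-7, 6.32, 6.69 and 6.02 in IL-15, and 6.71, 6.80 and 6.94 in IL-21. The IL-21 arrays lay above those of media control, by 0.38 on average, and the difference passed in neither fit. Eif2ak3, which encodes PERK, was at 10.59, 11.07 and 10.24 in media control and at 9.72, 9.99 and 9.31 in IL-2, where every array lay below media control. It was at 10.24, 10.47 and 9.58 in IL-4, 10.12, 10.39 and 9.76 in IL-7, 10.47, 10.98 and 9.47 in IL-15, and 10.56, 10.73 and 9.81 in IL-21, all overlapping with media control. Its differences were -0.96 in IL-2, -0.53 in IL-4, -0.54 in IL-7, -0.32 in IL-15 and -0.26 in IL-21. None passed without the block, and those of IL-2 (adjusted p = 7.5e-05), IL-4 (0.00998) and IL-7 (0.0163) passed with it. The difference of each same-numbered pair was negative for each cytokine. Wfs1, an ER membrane protein that restrains ATF6, lay under the background and passed with the block for IL-2 (0.59) and IL-21 (0.52).

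**Figure D2:**
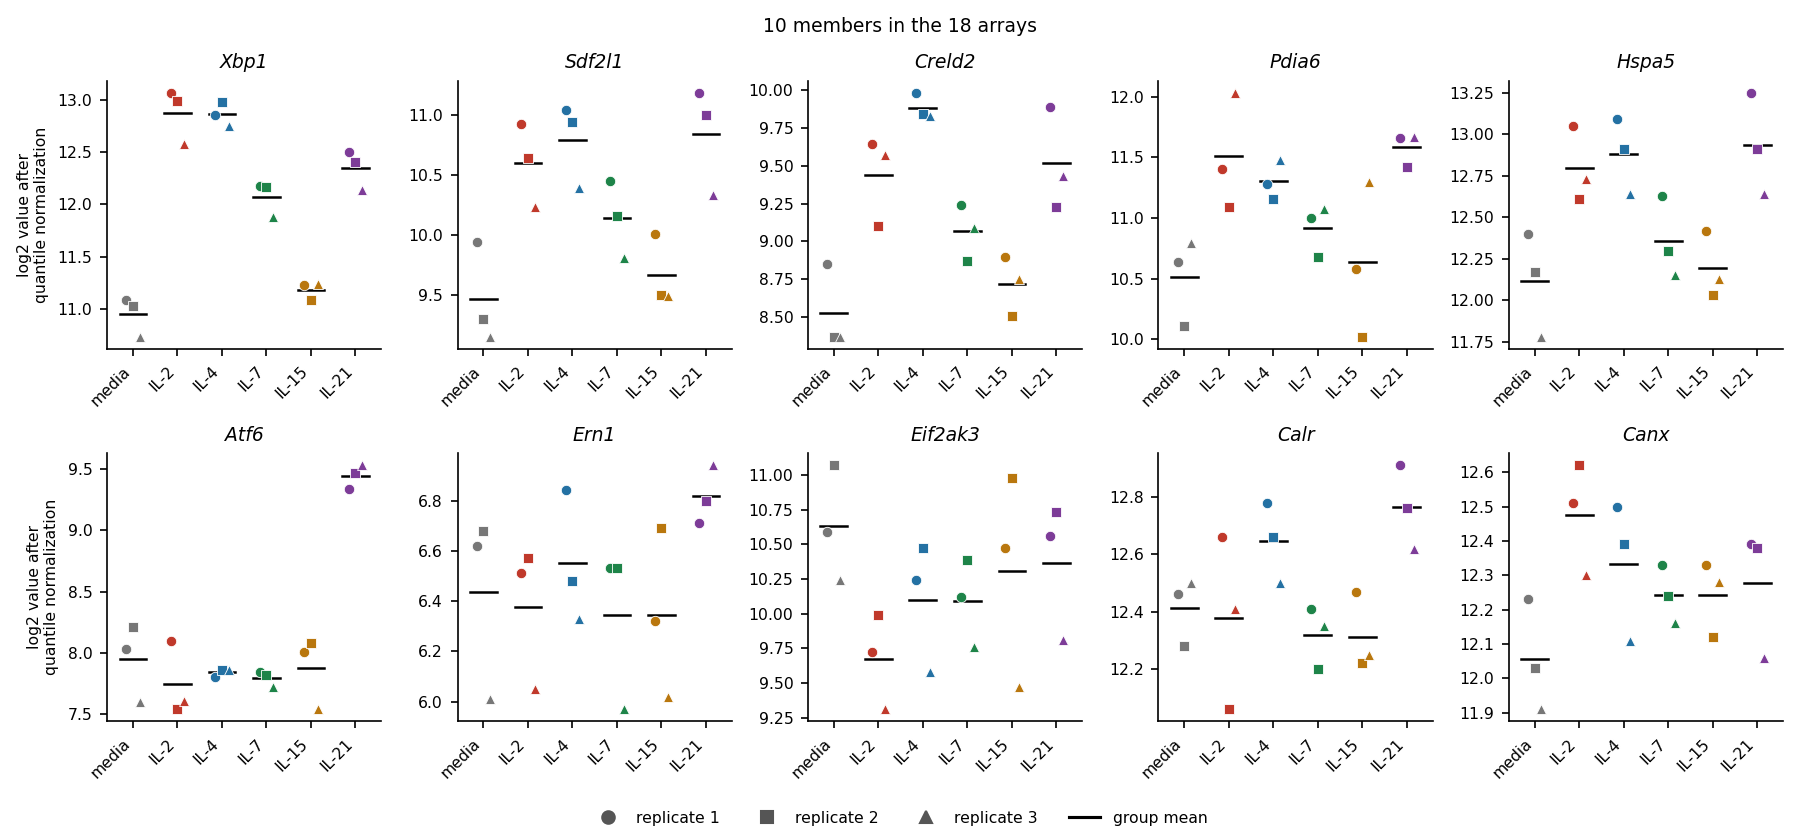
Log2 level after quantile normalization (vertical axes, a separate range for each gene) of 10 members by treatment (horizontal axes), with replicates 1, 2 and 3 as circles, squares and triangles and the group mean as a bar. Xbp1, Sdf2l1, Creld2, Pdia6 and Hspa5 are higher in IL-2, IL-4 and IL-21 than in media control, Atf6 in IL-21 alone (9.34 to 9.53), and the IL-15 arrays lie near those of media control.

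The Hsp70 system of the ER consists of the chaperone BiP (Hspa5), its nucleotide exchange factor Hyou1 and the J-domain proteins and their partner Sdf2l1 that work with it. Of its 6 members, 3 were higher in IL-2, 3 in IL-4 and 2 in IL-21, where 7.83%, 3.98% and 3.39% of all genes were higher. Sdf2l1 was at 9.94, 9.30 and 9.15 in media control, 10.92, 10.64 and 10.23 in IL-2, 11.04, 10.94 and 10.39 in IL-4, and 11.18, 11.00 and 10.33 in IL-21. Every array of these 3 groups exceeded media control, by 1.13 (SE 0.28, adjusted p = 0.00985), 1.33 (adjusted p = 0.00638) and 1.37 (adjusted p = 0.00595). At 10.45, 10.16 and 9.81 in IL-7 and 10.01, 9.50 and 9.49 in IL-15 it overlapped with the control, and IL-7 passed with the block (0.67, adjusted p = 0.00202). Without replicate 1 of IL-2 the IL-2 call was lost (adjusted p = 0.056).

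Hspa5 was at 12.40, 12.17 and 11.78 in media control, 13.05, 12.61 and 12.73 in IL-2, 13.09, 12.91 and 12.64 in IL-4, and 13.25, 12.91 and 12.64 in IL-21. Every array of these 3 groups lay above the control. With IL-7 it was at 12.63, 12.30 and 12.15 and in IL-15 at 12.42, 12.03 and 12.13, both within reach of the control. The differences were 0.68 in IL-2 (SE 0.20, adjusted p = 0.0303), 0.76 in IL-4 (adjusted p = 0.0266) and 0.82 in IL-21 (adjusted p = 0.0218). All 3 calls were lost without replicate 2 or 3 of media control (adjusted p from 0.0592 to 0.133). The IL-2 call was also lost without replicate 1 or 3 of IL-2, the IL-4 call without replicate 1 or 2 of IL-4, and the IL-21 call without replicate 1 or 2 of IL-21 (adjusted p from 0.0512 to 0.145). All 3 held with the block (adjusted p at most 8.7e-05). The probe sets of Hspa5 disagreed: a second gave 0.87, 1.07 and 1.08 in IL-2, IL-4 and IL-21, larger but not called, and the remaining one gave -0.12, 0.06 and -0.10.

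Hyou1 was higher in IL-2 (0.59, adjusted p = 0.04) and IL-4 (0.74, adjusted p = 0.0196), and in IL-21 with the block only (0.52). Both calls were lost without replicate 2 or 3 of media control, the IL-2 call also without replicate 1 of IL-2 and the IL-4 call without replicate 1 or 2 of IL-4. The J-domain proteins that bring unfolded clients to BiP were not called. Dnajb11 gave 0.06 in IL-2 and 0.35 in IL-21, Dnajb9 -0.51 and -0.28, and Dnajc3, which also inhibits PERK, -0.61 and 0.03, and none passed without the block. With it, Dnajb9 and Dnajc3 were lower in IL-2 (adjusted p = 0.0254 and 4.7e-04), Dnajc3 was lower in IL-7 (0.0256), and Dnajb11 was higher in IL-21 (0.0268).

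Of the other chaperones, Creld2 and Manf, 2 small ER proteins known to be induced by ER stress, rose in IL-2, IL-4 and IL-21. Creld2 was at 8.85, 8.37 and 8.37 in media control, 9.64, 9.10 and 9.57 in IL-2, 9.98, 9.84 and 9.83 in IL-4, and 9.89, 9.23 and 9.43 in IL-21. These arrays all exceeded the control, by 0.91 (SE 0.19, adjusted p = 0.00419), 1.35 (adjusted p = 4.2e-04) and 0.98 (adjusted p = 0.00517). With IL-7 it was at 9.24, 8.87 and 9.09, above the control in every array and called with the block only (0.54, adjusted p = 0.00477), and in IL-15 at 8.90, 8.51 and 8.75. Manf was higher by 0.62, 0.67 and 0.80 in IL-2, IL-4 and IL-21 (adjusted p = 0.0405, 0.0449 and 0.0199). Each Manf call was lost without replicate 1 or 2 of media control. The IL-2 call was also lost without replicate 1 or 3 of IL-2, the IL-21 call without replicate 1 or 3 of IL-21, and the IL-4 call without any 1 of the 6 arrays.

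Hsp90b1, the ER member of the HSP90 family (GRP94), showed differences of about the same size, 0.74 in IL-2, 0.76 in IL-4, 0.48 in IL-7 and 0.74 in IL-21, and passed in none. With the block all 4 passed (adjusted p = 1.0e-04, 1.7e-04, 0.01 and 2.7e-04), and with genes under the background left out, IL-2 and IL-4 passed as well. Its levels in media control were 11.96, 11.78 and 10.96, and its control array of replicate 3 lay 0.82 or more below the other 2 control arrays. The lectin chaperones that hold glycoproteins, calreticulin (Calr) and calnexin (Canx), differed less. Calr was at 12.46, 12.28 and 12.50 in media control, 12.66, 12.06 and 12.41 in IL-2, 12.78, 12.66 and 12.50 in IL-4, 12.41, 12.20 and 12.35 in IL-7, 12.47, 12.22 and 12.25 in IL-15, and 12.91, 12.76 and 12.62 in IL-21. The IL-21 arrays lay above those of media control, by 0.35 on average, and IL-21 passed with the block only (adjusted p = 0.0298). With IL-4 the average difference was 0.24, and the lowest array exceeded the highest control array by only 0.0015. Canx was at 12.23, 12.03 and 11.91 in media control, 12.51, 12.62 and 12.30 in IL-2, 12.50, 12.39 and 12.11 in IL-4, 12.33, 12.24 and 12.16 in IL-7, 12.33, 12.12 and 12.28 in IL-15, and 12.39, 12.38 and 12.06 in IL-21. The IL-2 arrays alone lay above all control arrays, by 0.42 on average, which passed with the block (adjusted p = 0.00336), and the other 2 Canx probe sets passed in IL-2 without it (0.74 and 0.64), 1 of them also in IL-4 (0.60, adjusted p = 0.0473).

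The disulfide isomerases make and rearrange the disulfide bonds of secreted proteins. Pdia6 was at 10.64, 10.11 and 10.79 in media control, 11.40, 11.09 and 12.03 in IL-2, 11.28, 11.16 and 11.48 in IL-4, and 11.66, 11.42 and 11.67 in IL-21, all above the control. The differences were 0.99 in IL-2 (SE 0.28, adjusted p = 0.0248), 1.07 in IL-21 (adjusted p = 0.033) and 0.79 in IL-4, which passed with the block only (adjusted p = 0.105 and 0.0022). With IL-7 it was at 11.00, 10.68 and 11.07 and in IL-15 at 10.58, 10.02 and 11.30, both overlapping with the control. The IL-2 call was lost without replicate 2 of media control or replicate 1 or 3 of IL-2, and the IL-21 call without any but replicate 3 of media control. P4hb, the archetypal isomerase, rose by 0.50 in IL-2 (adjusted p = 0.00466), and by 0.36 in IL-4 and 0.38 in IL-21 (adjusted p = 0.0469 and 0.047), where the IL-4 call was lost without any 1 of the 6 arrays and the IL-21 call without any but replicate 3 of IL-21. Pdia4 was called in IL-21 (0.60, adjusted p = 0.031) and lost without replicate 2 or 3 of media control or replicate 1 or 2 of IL-21. It gave 0.46 and 0.43 in IL-2 and IL-4, called with the block. With IL-7, P4hb (0.33, adjusted p = 0.0239) and Pdia4 (0.31, adjusted p = 0.0282) passed with the block only. Pdia3, the isomerase that works with calnexin and calreticulin, showed an offset between replicates larger than any treatment difference: 12.69, 12.56 and 11.12 in media control and 13.08, 12.94 and 11.53 in IL-21. Its difference of 0.39 in IL-21 had an SE of 0.59 and was called with the block only (adjusted p = 0.00828), with 0.39, 0.39 and 0.41 in the 3 same-numbered pairs.

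**Figure D3:**
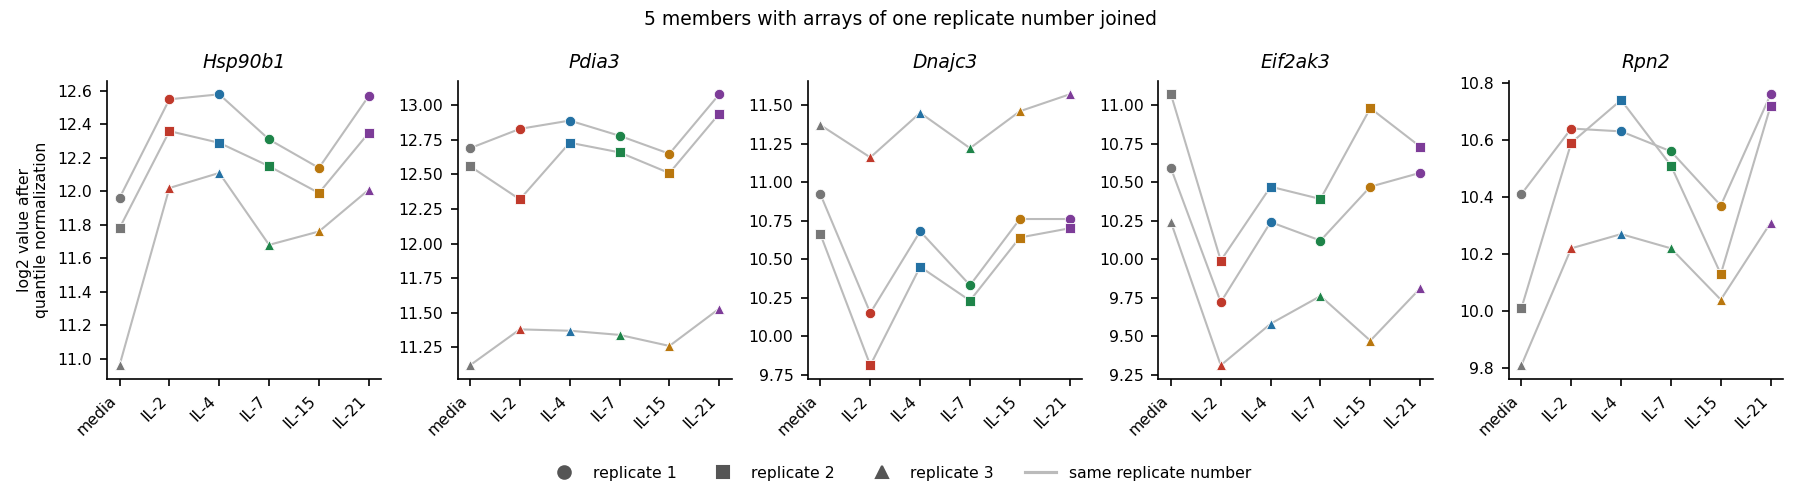
Log2 level after quantile normalization (vertical axes) of 5 members by treatment (horizontal axes), with grey lines joining the arrays of 1 replicate number and replicates 1, 2 and 3 as circles, squares and triangles. In Pdia3 and Dnajc3 replicate 3, the TRIzol extraction, stands apart in every group (11.12 to 11.53 for Pdia3), and in Eif2ak3 every line falls from media control to IL-2.

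Of 8 members of ER-associated degradation, 1 was higher in IL-2, where 7.83% of all genes were, and 0 in each of the other 4 comparisons in limma. At an unadjusted p under 0.05 there were 3 for IL-2, 1 each for IL-4 and IL-7, 0 for IL-15 and 2 for IL-21, beside 4540, 3755, 2579, 390 and 3208 of all 18194 genes. The block called 2 higher for IL-2 and 1 for IL-21, and 1 lower in 3 comparisons, those of IL-21, IL-4 and IL-2. The 1 was Herpud1, which anchors the degradation complex and holds the ERSE-II, at 0.48 in IL-2 (adjusted p = 0.0166), lost without replicate 1 or 3 of media control or replicate 1 of IL-2. The ubiquitin ligase Syvn1 (HRD1), whose window holds an ERSE, and its partner Sel1l passed against media control in neither fit. Nor did Edem1, a mannosidase-like protein that picks misfolded glycoproteins, which passed in IL-21 without replicate 3 (0.57, adjusted p = 0.00465). Edem2 was higher in IL-2 (0.47) and Derl1, a part of the export channel, lower (-0.39), each with the block only. The probe sets of Derl1 disagreed: the others gave 0.36, -0.10 and -0.13 in IL-2, not called without the block. Derl2 was higher in IL-21 with the block only (0.36). Derl3, the Derlin known from plasma cells, stayed under the background in its mean, at 6.50, 6.53 and 6.97 in media control and 6.09, 6.24 and 6.47 in IL-21, and was lower in IL-4 and IL-21 with the block only (-0.44 and -0.40).

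The measured subunits of the translocation channel did not change detectably, and Sec61g was not measured. Sec61a1, its pore, differed from media control by -0.13 to 0.01 and Sec61b by 0.00 to 0.18, and neither passed in any comparison with either fit. Other probe sets of Sec61a1 gave -0.04 to 0.39 in IL-4, none called. Of the signal peptidase, Spcs2 was higher in IL-2 (0.37, adjusted p = 0.0222, lost without replicate 2 of media control or replicate 1 or 3 of IL-2). The other Spcs2 probe set gave 0.24 in IL-2 and was not called. Spcs1 passed nowhere, and Sec11c was higher in IL-4 with the block only (0.39). Of the translocon-associated proteins, Ssr3 was higher in IL-4 (0.31, adjusted p = 0.046), a call that held without replicate 1 of media control and was lost without any of the other 5 arrays. Ssr1 passed with the block for IL-2, IL-4, IL-7 and IL-21, and another of its probe sets passed without it for IL-2, IL-4 and IL-21 (0.73, 0.65 and 0.77). Ssr2 passed in neither fit. Of the oligosaccharyltransferase, Rpn1 was higher in IL-2 (0.59, adjusted p = 0.00594), as were 5 of its 6 probe sets. With the block Rpn1, Rpn2 and Ostc were higher in IL-2 and IL-4, Rpn1, Rpn2 and Dad1 in IL-21, and Rpn2 in IL-7.

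**Figure D4:**
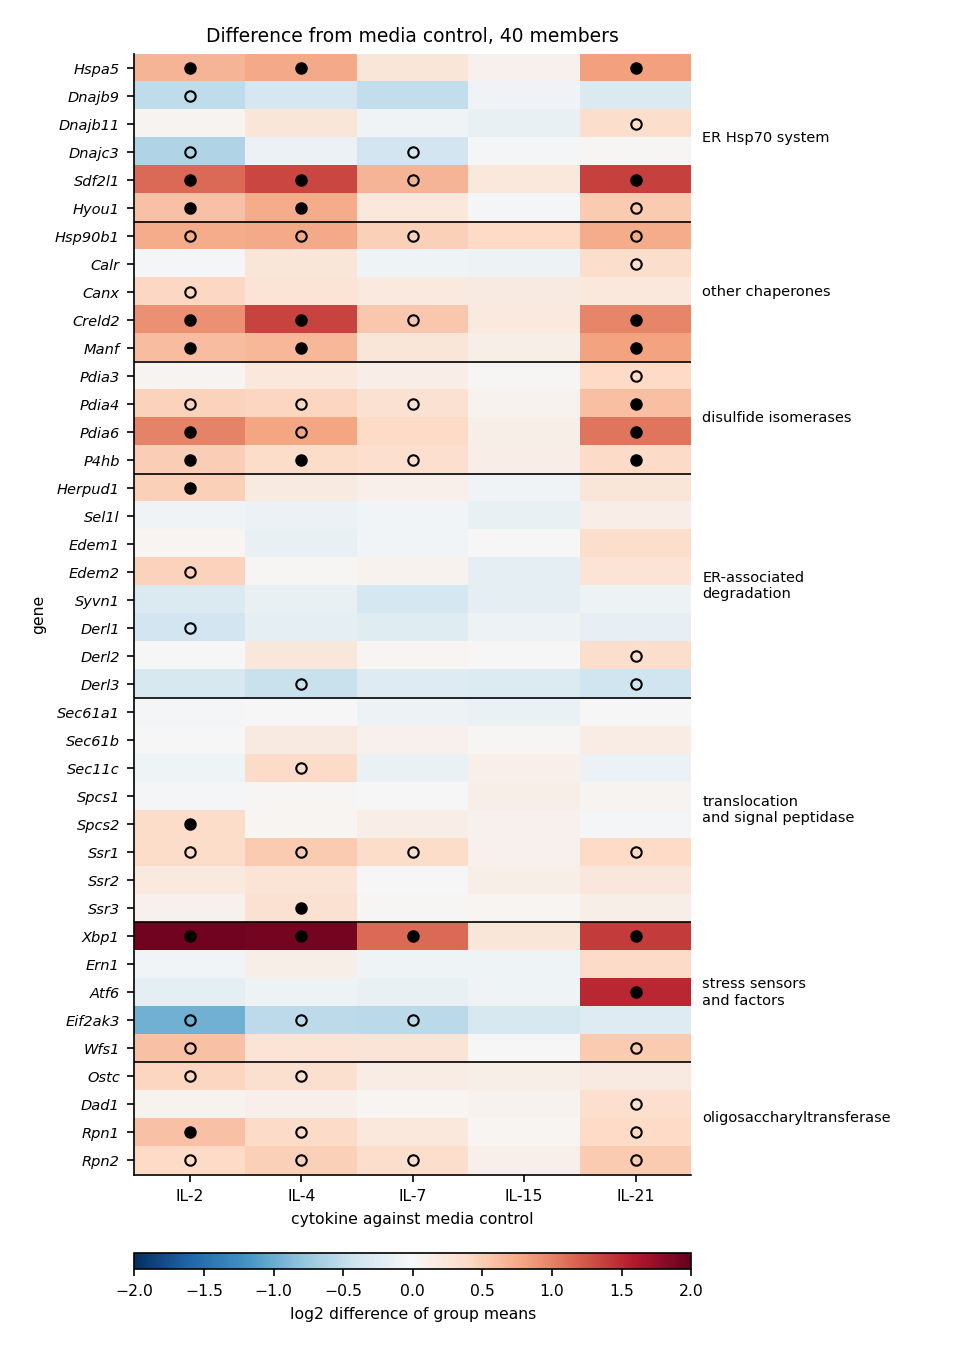
Log2 difference from media control (colour) of the 40 members (rows, by role) for each cytokine (columns). Filled circles mark an adjusted p under 0.05 and open circles an adjusted p under 0.05 with the replicate number as a block only. The darkest red cells are Xbp1 in IL-2 and IL-4 and Atf6 in IL-21, and the IL-15 column has no circle.

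**Figure D5:**
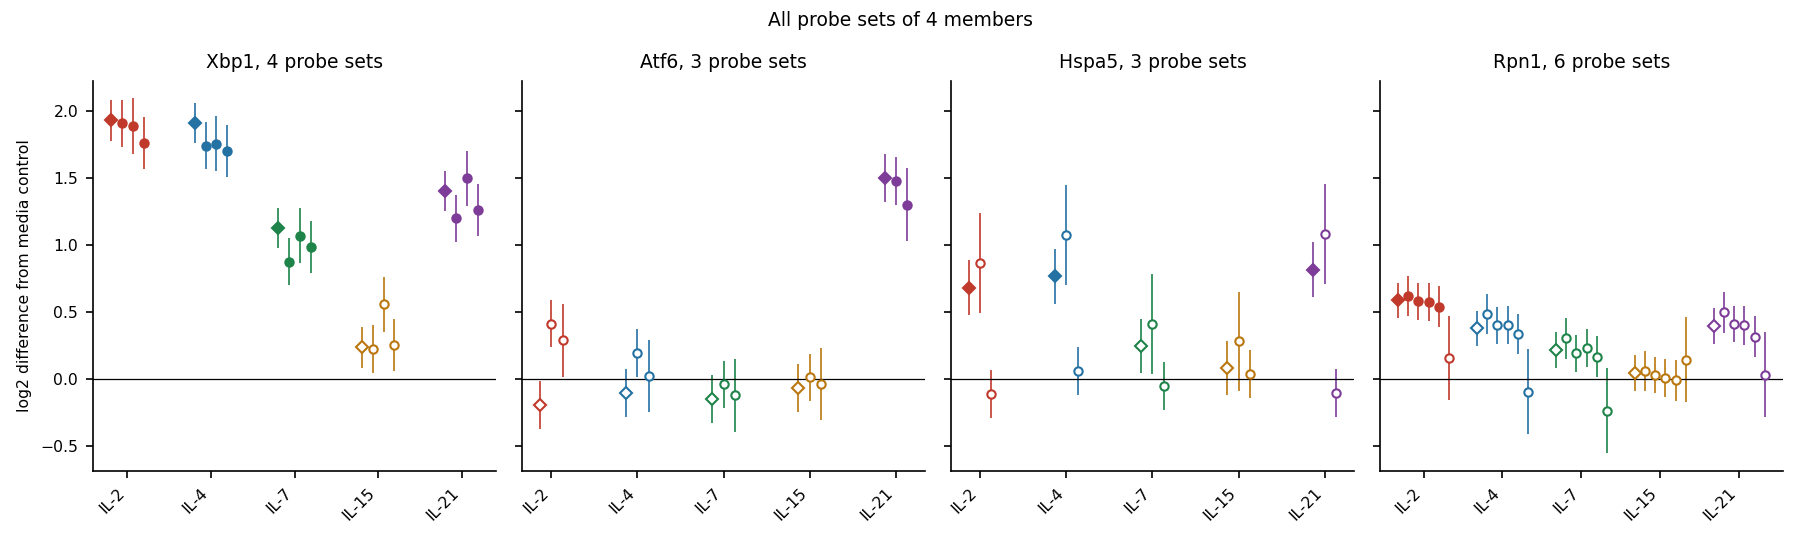
Log2 difference from media control with its SE (vertical axis) for every probe set annotated to Xbp1, Atf6, Hspa5 or Rpn1 alone, by cytokine. Diamonds mark the probe set taken for the gene and filled symbols an adjusted p under 0.05. The probe sets of Xbp1 lie close together for IL-2 and IL-4, those of Atf6 between 1.30 and 1.50 for IL-21, and 1 of the 3 of Hspa5 lies near 0 for every cytokine.

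Members with and without an ERSE in the window were both among those that rose. Of the 9 with one, 3 were higher in IL-2, 2 in IL-4 and 3 in IL-21, and of the 23 measured members with a window but no ERSE, 6, 4 and 4, where 7.83%, 3.98% and 3.39% of all genes were higher. With the block 5, 4 and 5 of the 9 were higher and 1 lower in each, and 11, 8 and 12 of the 23 were higher and 2, 1 and 0 lower. Of all genes 15.5%, 12.9% and 10.6% were then higher and 15.1%, 12.9% and 10.5% lower. Median differences of the 9 and the 23 were 0.42 and 0.08 in IL-2, 0.27 and 0.21 in IL-4 and 0.35 and 0.36 in IL-21. The difference between both sets was not tested. Of the 9, Hspa5, Creld2 and Pdia6 were called without the block, Pdia6 in IL-2 and IL-21 but not in IL-4. Hsp90b1, Calr, Canx, Derl3, Dnajc3 and Syvn1 were not called against media control without the block. With it Hsp90b1, Calr and Canx passed as higher with at least 1 cytokine, and Derl3 and Dnajc3 as lower.

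IL-2 was then compared with each other cytokine, a contrast that shares the IL-2 arrays. Against IL-15, 7 members were higher (4.24% of all genes) and 0 lower (4.35%; 8.60% either way), among them Xbp1 (1.70, adjusted p = 1.0e-05), Creld2 (0.72), Sdf2l1 (0.93) and Hyou1 (0.63). That count was 1 without replicate 1 of IL-2, 2 without replicate 2 of IL-15, 3 with median centring and with the block 18 were higher and 3, Dnajc3, Derl1 and Eif2ak3, lower (11.5% and 10.9% of genes, 22.4% in all). Against IL-7, 1 member was higher, Xbp1 (0.80, adjusted p = 0.0139), where 0.528% of genes were higher and 0.896% lower (1.42% either way). Without replicate 1 or 2 of IL-2 or replicate 2 or 3 of IL-7 it was lost (adjusted p from 0.0562 to 0.0919), and with the block 11 members were higher and 0 lower (5.19% and 5.91% of genes, 11.1% in all). Against IL-4, 0 members passed in limma (0.962% of genes higher, 1.10% lower, 2.07% either way), 5 members and 1915 of 18194 genes had an unadjusted p under 0.05, and the block called Edem2 and Spcs2 higher and Creld2, Sec11c and Dnajc3 lower in IL-2 (5.62% and 4.98% of genes, 10.6% in all). Against IL-21, Xbp1 (0.53, adjusted p = 0.0485) and Spcs2 (0.41, adjusted p = 0.0279) were higher in IL-2 (2.87% of genes higher) and Atf6 lower (3.71% lower, 6.58% either way), and with the block 2 were higher and 6, Calr, Pdia3, Dnajc3, Derl2, Eif2ak3 and Atf6, lower (10.6% and 10.8%, 21.4% in all). The Xbp1 call was lost without any array but replicate 3 of IL-2, and the Spcs2 call without any of the 6. In a single test over the 6 groups, 10 members differed (13.9% of all genes), and 28 with the block (35.7%).

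IL-21 exceeded IL-15 in 4 members, Sdf2l1, Creld2, Xbp1 and Atf6 (2.06% of all genes higher, 1.48% lower, 3.54% either way), and with the block in 17, with 0 lower (6.59% and 5.99%, 12.6% in all). The count was 2 without replicate 2 of IL-15 or replicate 1 of IL-21, and 2 with median centring. Without replicate 2 or 3 of IL-15 or replicate 1 or 2 of IL-21 the Sdf2l1 call was lost, and without any array but replicate 2 of IL-21 the Creld2 call was lost (adjusted p from 0.0508 to 0.179). Against IL-7 and against IL-4, 1 member was higher in IL-21, Atf6 (against IL-7 1.45% of genes higher, 0.797% lower and 2.24% either way, against IL-4 2.35%, 1.46% and 3.81%). With the block 10 members were higher and 0 lower than in IL-7 (4.83% and 4.06% of genes, 8.89% in all). Against IL-4 the block gave 2 higher and 3, Creld2, Sec11c and Xbp1, lower (6.66% and 5.07%, 11.7% in all).

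Beyond the members, genes listed for the PERK and ATF4 branch rose most clearly in IL-2. Whether PERK acted on them was not tested. Of 21 measured genes of this branch, 13 were higher in IL-2, 6 in IL-4, 3 in IL-21 and 0 in IL-7 or IL-15. In each 0 were lower. Of all genes 7.83%, 3.98% and 3.39% were higher in IL-2, IL-4 and IL-21. With the block 14, 11 and 10 were higher in IL-2, IL-4 and IL-21, with 0, 1 and 1 lower. In IL-7 it gave 9 higher and 2 lower. Of all genes 15.5%, 12.9%, 10.6% and 8.34% were then higher in IL-2, IL-4, IL-21 and IL-7. Their median difference was 1.25 in IL-2 and 0.39 in IL-21. The largest in IL-2 were the amino acid enzymes Cth (3.43) and Asns (3.24) and the stress factor Atf3 (3.08). With IL-21 the transcription factors Cebpb (1.59), Atf3 (1.40) and Atf4 (0.77) passed, and of Eif2ak3 itself the level was not higher in any group. Ddit3, the transcription factor CHOP of prolonged ER stress, gave 0.33 in IL-2 and -0.34 in IL-21 and did not pass.

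Other folding genes of the ER were called in both directions. Of 45 measured, 11 were higher and 3 lower in IL-2, 6 and 2 in IL-4, and 2 and 3 in IL-21. With the block these counts were 16 and 7, 15 and 6, and 12 and 5. Of all genes 7.83% were higher and 8.0% lower in IL-2, 3.98% and 5.10% in IL-4, and 3.39% and 3.29% in IL-21. With the block these shares were 15.5% and 15.1%, 12.9% each way, and 10.6% and 10.5%. Whether any list in this paragraph differed from all genes was not tested. Ero1a, the oxidase that recharges the isomerases, rose by 2.29 in IL-2, 1.70 in IL-4, 1.61 in IL-7 and 1.88 in IL-21, and the prolyl isomerase Ppic fell by 1.38, 1.38, 0.82 and 1.90 on the log2 scale. Of 28 other degradation genes, 1 was higher and 6 lower in IL-2, with Os9, a lectin of the degradation complex, at -0.89 and Erlec1, another such lectin, at -0.72. With IL-4, 1 was higher and 3 lower, and with IL-21, 2 and 0. With the block 2 were higher and 10 lower in IL-2, 2 and 11 in IL-4, and 4 and 7 in IL-21. Of 38 other translocon, signal peptidase and glycosylation genes, 8 were higher and 3 lower in IL-2, 2 and 0 in IL-4, and 5 and 0 in IL-21. The mannosyltransferase Alg2 led them (1.29 in IL-2 and 0.98 in IL-21). With the block these counts were 14 and 4, 14 and 2, and 13 and 2. Of 46 genes of transport from ER to Golgi, 7 were higher and 2 lower in IL-2, 4 and 1 in IL-4, and 4 and 1 in IL-21, with Kdelr3, a receptor that returns ER proteins, at 1.05 in IL-21. The block gave 18 and 6, 13 and 2, and 16 and 2. Of 25 cytosolic and mitochondrial chaperones, 14 were higher in IL-2, 4 in IL-4, 2 in IL-21 and 0 in IL-7, with Hspa9 at 1.60 and Hspd1 at 1.17 in IL-2. The block gave 19, 15, 7 and 10 higher in IL-2, IL-4, IL-21 and IL-7, and 2 lower in IL-21. In IL-7 it called 8.34% of all genes higher.

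Among the factors of secretory lineages, Prdm1, which encodes BLIMP-1 and drives plasma cell and effector T cell differentiation, rose by 3.70 in IL-21, 2.46 in IL-2, 2.02 in IL-4 and 1.44 in IL-7. Bach2, a repressor of Prdm1, fell by 2.10 in IL-2, 1.48 in IL-4 and 1.26 in IL-21 on the log2 scale. The differences of Bcl6 that passed were -2.46 in IL-2 and -1.665 in IL-7.

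As a check of the labelled cell type, all 9 measured CD8 T cell markers, among them Cd8a, Cd8b1 and Cd3e, had means above the background. Of these 6 were lower in IL-2, 3 in IL-4, 1 in IL-7 and 1 in IL-21. Markers of B cells, which are part of the stimulator splenocytes and also express these ER genes, were measured beside the CD8 T cell markers. Of 15 with a probe set, 5 had means above the background (Cd79b, H2-Aa, H2-Ab1, Cd74 and Ighm), and 7 were lower in IL-2, 3 in IL-4, 4 in IL-7 and 3 in IL-21, with none higher. With the block 7, 5, 6 and 7 were lower and 0 higher. Their summed level (log2) ran from 13.03 to 13.27 in media control, 12.01 to 12.34 in IL-2, 12.39 to 12.47 in IL-4, 12.59 to 12.82 in IL-7, 12.67 to 13.12 in IL-15 and 12.54 to 12.71 in IL-21. Of 9 plasma cell markers, 3 were above the background (Igha, Tnfrsf13b and Slamf7), while Jchain, Sdc1 and Mzb1 were not. Slamf7 was higher in IL-2, IL-4 and IL-21 (1.36, 1.69 and 1.60), and Pou2af1 (-3.37 and -3.15) and Igha (-1.43 and -1.56) were lower in IL-2 and IL-4. The summed level of the 9 ran from 10.20 to 10.93 in media control, 10.74 to 11.04 in IL-2, 10.35 to 10.57 in IL-4, 10.31 to 10.90 in IL-7, 10.16 to 10.85 in IL-15 and 10.12 to 10.82 in IL-21. Myeloid markers, 4 of 15 above the background, ran from 9.97 to 13.11 in media control, 9.22 to 9.77 in IL-2, 9.35 to 10.36 in IL-4, 9.35 to 10.51 in IL-7, 9.36 to 11.99 in IL-15 and 9.52 to 11.19 in IL-21. NK cell markers, 4 of 7 above the background (Klre1, Eomes, Gzma and Nkg7, which CD8 T cells also make), ran from 12.51 to 12.67 in media control, 12.07 to 12.14 in IL-2, 14.08 to 14.45 in IL-4, 12.38 to 12.56 in IL-7, 12.46 to 12.66 in IL-15 and 14.30 to 14.99 in IL-21, with Gzma higher by 4.87 in IL-4 and 5.24 in IL-21. Dendritic cell markers, 1 of 9 above the background, ran from 9.22 to 9.72 in media control, 11.42 to 11.82 in IL-2, 10.08 to 10.96 in IL-4, 9.81 to 10.33 in IL-7, 9.39 to 9.75 in IL-15 and 10.83 to 10.96 in IL-21. The 1 was Batf3, a transcription factor that activated T cells also make, higher by 3.78 in IL-2, 2.22 in IL-4, 1.71 in IL-7 and 2.83 in IL-21. The part of these cells in the members' differences was not tested. Of 22 measured housekeeping genes, 4 were higher and 2 lower in IL-2, 1 was higher in IL-4, and the median difference was 0.08 in IL-2 and 0.12 in IL-21. With the block 6, 6, 6 and 5 were higher in IL-2, IL-4, IL-7 and IL-21, and 2, 1, 0 and 0 lower. Of all genes 15.5%, 12.9%, 8.34% and 10.6% were then higher in these comparisons.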

How the data were processed

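RNA of 18 samples, 3 replicates in each of 6 groups, was measured on Affymetrix mouse expression arrays. Per the labels and the methods, images were processed with GeneChip Command Console 3.1.1, and the authors made the deposited log2 values with the RMA algorithm in Expression Console 1.1. These columns were quantile normalized again with limma 3.58.1 in R 4.3.3, because 3 lay on a lower scale. Of 45101 probe sets, 34958 have 1 gene symbol, 932 have several and 9211 are unlisted. For each of 18194 genes the probe set with the highest mean over the 18 columns was taken, and genes of low level were kept.

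Groups were compared with limma (lmFit, 1 mean per group, no covariate, 12 residual degrees of freedom, eBayes, two-sided), with p adjusted by the Benjamini-Hochberg method over all genes of a comparison and a threshold of 0.05. The number of arrays limits the precision. Intervals are at 95%. The members and lists were chosen with earlier results of these data known.

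All members may be named, with every array's value for those that passed against media control with a difference of 1 or more (in absolute size) and for Hspa5, Calr, Canx, Xbp1, Ern1, Atf6 and Eif2ak3. For some further members that results turn on, values were added. Of other lists, up to 3 genes per comparison with the largest difference that passed were named, and Ddit3, Jchain, Sdc1 and Mzb1 were named after their values were seen. Element sites are printed for all members that hold one, and upstream sequence for Xbp1 and 4 members with an ERSE.

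The replicate numbers come from the sample titles. After gene and group means were removed, the 45 pairs of arrays with the same number correlated across genes (lowest 0.44, median 0.60), and the 90 pairs with different numbers from -0.77 to 0.38. The numbers were therefore taken to pair the samples. The titles state no pairing, and replicate 3 of every group also differed in RNA method. Alternatives were the values as deposited, median centring, the block, the median over probe sets, a background filter and left-out arrays. Promoter windows were searched with Python 3.11.15 and pandas 2.3.3, and figures drawn with matplotlib 3.10.9. The fit was also run on simulated arrays with noise drawn independently for each array. Deviations shared by a replicate number were not part of that run.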

Additional observations from a re-analysis of the deposited data

How the results depend on the processing

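Counts are of members passing. On the values as deposited the count was 0 for each comparison (for comparisons with media control, the 10 for IL-4 and 8 for IL-21 at an unadjusted p under 0.05 were the most), and the median difference over all genes was then 0.43 for IL-4 and IL-21 and 0.41 for IL-7. Because the replicate numbers were taken to pair the samples, the replicate block was fitted: it gave 23 for IL-2, 18 for IL-4, 10 for IL-7, 0 for IL-15 and 21 for IL-21 against media control. It gave 5 for IL-2 against IL-4, 11 against IL-7, 21 against IL-15 and 8 against IL-21, and 5, 10 and 17 for IL-21 against IL-4, IL-7 and IL-15, with 28 for the test over 6 groups, and it lost none of the 46 calls. Median centring gave 3 for IL-2 against IL-15 and 2 for IL-21 against IL-15. The background filter gave 2 for IL-21 against IL-4. Without the 3 arrays on the lower scale the count was 1 for IL-2 against IL-4 and 3 for IL-21 against IL-4. With a replicate number or a single array left out, the counts against media control ran from 2 to 17 for IL-2, 2 to 9 for IL-4, 0 to 1 for IL-7, 0 to 0 for IL-15 and 3 to 12 for IL-21. For IL-2 they ran from 0 to 0 against IL-4, 0 to 1 against IL-7, 1 to 12 against IL-15 and 1 to 6 against IL-21, for IL-21 from 1 to 4 against IL-4, 1 to 2 against IL-7 and 1 to 9 against IL-15, and for the test over 6 groups from 3 to 14. Of the 46 single calls, median centring lost 15, the median over probe sets 11 and leaving out the 3 lower arrays 17. None changed sign under any alternative run. The cause of these changes was not tested.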
